A study of Mus musculus with 5 samples.

Results

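The 7 genes described here belong to the complement system and were followed through 4 kinds of cardiac cell: C1qa, C1qb, C1qc, C3, C4b, Cfb and Serping1. They were taken by symbol, and 7 of the 31053 counted genes were members. Cells came from mouse hearts that were pooled, minced and digested with collagenase I, DNase I and hyaluronidase, and nucleated live cells (DRAQ5+ DAPI-) were sorted before 5′ single-cell RNA sequencing. The control group was Ctla4+/+ Pdcd1-/- (4 mice in 2 libraries, replicates 1 and 2). The disease group was Ctla4+/- Pdcd1-/- (10 mice in 3 libraries, replicates 3, 4 and 5), a genetic model of the myocarditis that can follow immune checkpoint inhibitor therapy. These genotypes are those of the study design, in which both groups lack Pdcd1, the gene of the checkpoint receptor PD-1, and differ by 1 allele of Ctla4, the gene of the checkpoint receptor CTLA-4. The genotype labels of the single samples differ from it: those of control replicate 2 and disease replicate 4 read Pdcd2-/- and that of disease replicate 5 reads Pdcd3-/-, so groups were taken from the Ctla4 part of each label. The dye in the sort labels likewise differs between samples, from DRAQ5 to DRAQ9. Hearts were pooled, so the library was the replicate, and the number of mice in each was not given in the sources used here. The study compared cells of inflamed hearts with those of hearts that keep both Ctla4 alleles.

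Complement is a cascade of plasma and tissue proteins that marks targets for uptake and recruits leukocytes. C1q, built from the chains encoded by C1qa, C1qb and C1qc, recognises antibody complexes and dying cells and starts the classical pathway. C4 is cleaved next and contributes to the enzyme that cleaves C3, the component on which all pathways meet, and factor B (Cfb) forms the corresponding enzyme of the alternative pathway. C1 inhibitor (Serping1) is a serpin that blocks the C1 proteases. The liver makes most circulating C3, C4 and factor B, whereas tissue macrophages are a main source of C1q. Transcription of C3, C4, factor B and C1 inhibitor is known to be inducible by inflammatory cytokines, interferon gamma among them.

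The 5 libraries held 47319 barcodes and 203796069 unique molecular identifiers (UMIs, 1 per counted molecule), with 24991704 to 55053988 UMIs per library, and 38312 barcodes were retained. A barcode was assigned to a class when at least 80% of its UMIs over the marker genes of 10 classes came from 1 class. The macrophage class held 4256 barcodes (474 to 1365 per library), the fibroblast class 10387 (1334 to 3115), the endothelial class 12810 (1984 to 3066) and the mural class, pericytes and smooth muscle, 367 (50 to 104). T or NK barcodes numbered 94 to 2434 per library. The summed level of the macrophage markers was 4228 to 4564 CPM (UMIs per 1000000 UMIs of the class in that library) in macrophage barcodes and 91.7 to 174.8 CPM in fibroblast barcodes. That of the fibroblast markers was 6340 to 8440 CPM in fibroblast barcodes and 41.1 to 74.6 CPM in macrophage barcodes. Of the deposited barcode sequences, 1196 occurred in 2 libraries and 12 in 3. In T or NK barcodes, transcripts of both targeted genes were counted in every library: Ctla4 at 403 and 61.8 CPM in the control libraries and 138, 631 and 525 CPM in disease, and Pdcd1 at 573 and 124 CPM in the control libraries and 250.5, 1037 and 816 CPM in disease. The part of each gene that the alleles lack is not given in the sources used here, so these 5′ counts do not check the genotype labels.

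All 7 genes lie on the minus strand of GRCm38 and are protein coding. C1qa (ENSMUSG00000036887) spans chr4:136895917-136898803, C1qc (ENSMUSG00000036896) chr4:136889804-136893065 and C1qb (ENSMUSG00000036905) chr4:136880129-136886187, so the 3 chains are neighbours. C4b (ENSMUSG00000073418) spans chr17:34728380-34743882 and Cfb (ENSMUSG00000090231) chr17:34856374-34862518. C3 (ENSMUSG00000024164) spans chr17:57203970-57228136, and Serping1 (ENSMUSG00000023224) chr2:84765387-84775444. The counted gene Gm20547 overlaps Cfb on the same strand, and C4b has a near-identical copy, C4a, which is not analysed here, so counts of both members are uncertain to that extent. Of the RefSeq promoter table, 3 of the 7 members matched (C1qb, C1qc and C3), and the 250 bases before the start are shown for C1qb, a gene of macrophages, and C3, a gene of fibroblasts, in these data. Sequences are from RefSeq on GRCm38.p6, 5′ to 3′ on the minus strand, at chr4:136886201-136886450 for C1qb and chr17:57228137-57228386 for C3. Capitals mark a match to the core of the myeloid factor PU.1 (GAGGAA) in C1qb and to a core of C/EBP sites (TTGCNNAA) in C3.
C1qb: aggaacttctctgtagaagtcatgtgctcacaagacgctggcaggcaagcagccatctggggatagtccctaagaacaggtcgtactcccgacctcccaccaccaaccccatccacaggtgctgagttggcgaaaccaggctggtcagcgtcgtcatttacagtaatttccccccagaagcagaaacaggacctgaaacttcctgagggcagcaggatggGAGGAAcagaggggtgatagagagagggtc
C3: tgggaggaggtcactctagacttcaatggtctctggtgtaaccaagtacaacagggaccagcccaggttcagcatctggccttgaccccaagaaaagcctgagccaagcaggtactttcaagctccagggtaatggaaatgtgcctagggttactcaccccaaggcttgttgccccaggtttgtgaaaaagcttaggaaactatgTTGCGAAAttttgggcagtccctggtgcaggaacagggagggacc
The C1qb match lay 30 to 25 bases before the start and the C3 match 45 to 38 bases before it. On both strands, GAGGAA occurred in 23.3% of 32851 promoter windows of this length and TTGCNNAA in 9.56%, so either is common. The C1qc window, part of which lies in the first exon of the GENCODE gene model, also held GAGGAA on its other strand. The interferon elements TTCNNNGAA (7.02% of windows) and GAAA, any 2 bases, GAAA (2.98%) had no match in the 3 windows, which says only that these letters are not in those windows.

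The C1q chains were macrophage transcripts in these hearts, at levels in every library far above those of the fibroblast, endothelial and mural classes. In macrophage barcodes the C1qa level was 5594 CPM in control replicate 1 and 5129 CPM in control replicate 2. Disease replicates 3, 4 and 5 gave 6360, 7658 and 6534 CPM. C1qb was at 6520 and 5683 CPM against 6713, 9504 and 7715 CPM. C1qc was at 4935 and 4586 CPM against 5440, 6100 and 5660 CPM. For each chain the disease libraries lay above both controls, and disease replicate 4 was highest. After each barcode was thinned to 1000 UMIs, C1qa was detected in 91.7 to 95.7% of macrophage barcodes and C1qb in 91.7 to 95.8%, with 93.5 to 98.0% and 93.0 to 97.6% before thinning. The classes were compared on summed UMIs with the quasi-likelihood test of edgeR, with the library as a block and p-values adjusted over all genes by Benjamini and Hochberg. C1qa was 216-fold higher in macrophage than in fibroblast barcodes (log2 difference 7.75, SE 0.25, adjusted p = 1.01e-10), with log2 differences of 7.68 for C1qb and 7.93 for C1qc. Of all genes tested, 74.4% passed in that comparison, so a difference between these classes is common.

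In fibroblast, endothelial and mural barcodes, C1q was within a few times the level carried by lymphocytes, which should lack it. C1qa in fibroblast barcodes was at 47.7, 12.8, 26.4, 68.2 and 29.2 CPM in libraries 1 to 5, which is 0.250 to 0.890% of the macrophage level of the same library. In T or NK barcodes, which served as a measure of free RNA, it was at 0.223 to 1.11% of that level, and in B barcodes at 0.396 to 1.70%. Lyz2, a macrophage lysozyme gene, behaved alike, at 0.344 to 1.00% in fibroblast and 0.322 to 1.30% in T or NK barcodes. Fibroblast C1qa was 0.625 to 0.869 times, C1qb 0.605 to 0.907 times and C1qc 0.512 to 1.40 times the level in lymphocyte barcodes of the same library, the highest of these from 9 lymphocyte UMIs, and C1q in fibroblasts is read here as background. Endothelial C1qa, at 78.5, 19.5, 46.1, 117 and 54.5 CPM, was 1.15 to 1.52 times the lymphocyte level, with 1.30 to 1.47 times for C1qb and 1.02 to 2.28 times for C1qc, and Lyz2 was at 0.477 to 1.56% of its macrophage level there. Mural barcodes held 31, 0, 10, 10 and 7 C1qa UMIs, where 3 UMIs would be 8.47 CPM in the library with none. Of all C1q UMIs, C1qa, C1qb and C1qc made up 33.0, 39.2 and 27.8% in macrophage and 33.5, 41.3 and 25.2% in fibroblast barcodes, so the chains kept nearly the same proportions.

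Among the macrophage, fibroblast, endothelial and mural classes, C3 was highest in fibroblasts and next in macrophages. In fibroblast barcodes C3 was at 846 and 710 CPM in the control libraries and 719, 2200 and 1156 CPM in disease replicates 3, 4 and 5. Replicates 4 and 5 lay above both controls, replicate 3 lay between them, and the groups overlapped. In macrophage barcodes C3 was at 54.1 and 25.1 CPM in the control libraries and 47.2, 251.5 and 135 CPM in disease, with the same libraries high. Fibroblast C3 was 45.8 to 83.5 times the lymphocyte level of the same library and macrophage C3 1.84 to 9.75 times, the lowest ratio being that of control replicate 2. Endothelial C3, at 24.7, 9.14, 15.1, 37.2 and 22.0 CPM, was 0.671 to 1.59 times the lymphocyte level, and mural barcodes held 4 to 18 C3 UMIs per library. Fibroblasts exceeded macrophages 11.7-fold (edgeR log2 difference of macrophage over fibroblast -3.55, SE 0.26, adjusted p = 1.64e-07) and endothelial barcodes 53.3-fold (log2 5.73, SE 0.15, adjusted p = 6.37e-14), where 75.3% of all genes passed. Endothelial and mural C3 did not differ by that test.

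Detection of C3 per barcode followed the same libraries. In fibroblast barcodes thinned to 1000 UMIs, C3 was detected in 40.6 and 36.3% of control and 36.6, 60.3 and 43.3% of disease barcodes, against 70.4, 64.2, 62.6, 79.7 and 68.1% before thinning. In macrophage barcodes it was detected in 3.39 and 1.97% against 3.76, 14.5 and 6.58% (19.1, 8.02, 10.7, 45.6 and 22.3% before thinning). T or NK barcodes gave 2.32% and 0 of 94, which allows a share of up to 3.19%, in the controls and 0.709, 2.70 and 1.16% in disease. Median depth was 5100 to 7453 UMIs in macrophage and 3796 to 4960 UMIs in T or NK barcodes. In control replicate 2 the T or NK barcodes were too few to compare with the macrophage share, while in disease replicate 4 the macrophage share was 14.5% and that of T or NK barcodes 2.70%.

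C4b was shared by macrophages and fibroblasts, and its level in the fibroblast class varied most between libraries. Macrophage C4b was at 125 and 88.8 CPM in the control libraries and 149, 212 and 98.9 CPM in disease, and the groups overlapped. Fibroblast C4b was at 21.1 and 10.1 CPM in the control libraries and 18.8, 166 and 83.9 CPM in disease. Disease replicate 4 and, less so, replicate 5 stood above the rest, while replicate 3 lay between the controls. Macrophages exceeded fibroblasts 3.88-fold (edgeR log2 difference 1.95, SE 0.38, adjusted p = 0.000584). Thinned shares of barcodes with a C4b UMI were 12.2, 8.55, 13.1, 16.9 and 8.72% in macrophages and 1.64, 0.980, 1.48, 9.05 and 4.69% in fibroblasts, and before thinning 20.5 to 42.2% and 4.35 to 24.97%. Endothelial barcodes held 17, 8, 15, 54 and 28 C4b UMIs (1.72, 0.925, 1.82, 10.0 and 2.97 CPM), and the mural class held 2 UMIs in all.

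Cfb was lower in count and uneven between barcodes. In macrophage barcodes Cfb was at 55.6 and 12.7 CPM in the control libraries and 57.5, 161.5 and 72.0 CPM in disease. The groups did not overlap, but in disease replicate 3 a single barcode held 82 of 179 Cfb UMIs, and without it that library was at 31.4 CPM, between the controls. In fibroblast barcodes Cfb was at 9.68 and 4.12 CPM against 4.80, 71.8 and 18.7 CPM, with replicate 4 far above the other libraries. Macrophages exceeded fibroblasts 4.98-fold (edgeR log2 difference 2.32, SE 0.24, adjusted p = 3.17e-06). Thinned shares of Cfb-positive barcodes were 3.47, 1.32, 1.58, 9.87 and 3.52% in macrophages and 0.804, 0.377, 0.274, 4.43 and 1.01% in fibroblasts, and 4.22 to 37% and 1.58 to 14.3% before thinning. Endothelial Cfb lay at 2.31 to 9.67 CPM, and mural barcodes held 3 UMIs.

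Serping1 was the member of the stromal classes. In fibroblast barcodes Serping1 was at 2950 and 2723 CPM in the control libraries and 3296, 5866 and 3913 CPM in disease, with every disease library above both controls. Mural barcodes followed at 552, 477, 458, 835 and 609 CPM, which is 13.9 to 18.7% of the fibroblast level. Endothelial Serping1 was at 70.5 and 32.8 CPM against 48.4, 199 and 76.5 CPM, or 1.50, 1.75, 0.761, 4.20 and 2.39 times the lymphocyte level in libraries 1 to 5. Macrophage Serping1, at 18.9 to 36.3 CPM, was 0.369 to 1.01 times the lymphocyte level and is read here as background. The edgeR differences were 6.95-fold for fibroblasts over mural barcodes (log2 2.80, SE 0.11) and 7.93-fold for mural over endothelial barcodes (log2 difference of endothelial over mural -2.99, SE 0.12), with 42.7 and 42.3% of all genes called in those comparisons. Endothelial also exceeded macrophage barcodes (log2 difference of macrophage over endothelial -1.14), so each step from fibroblast to mural, endothelial and macrophage was called. The last step sets endothelial barcodes, near the lymphocyte level in some libraries, against a class read as background. No order of expression is read from that step.

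**Figure D1:**
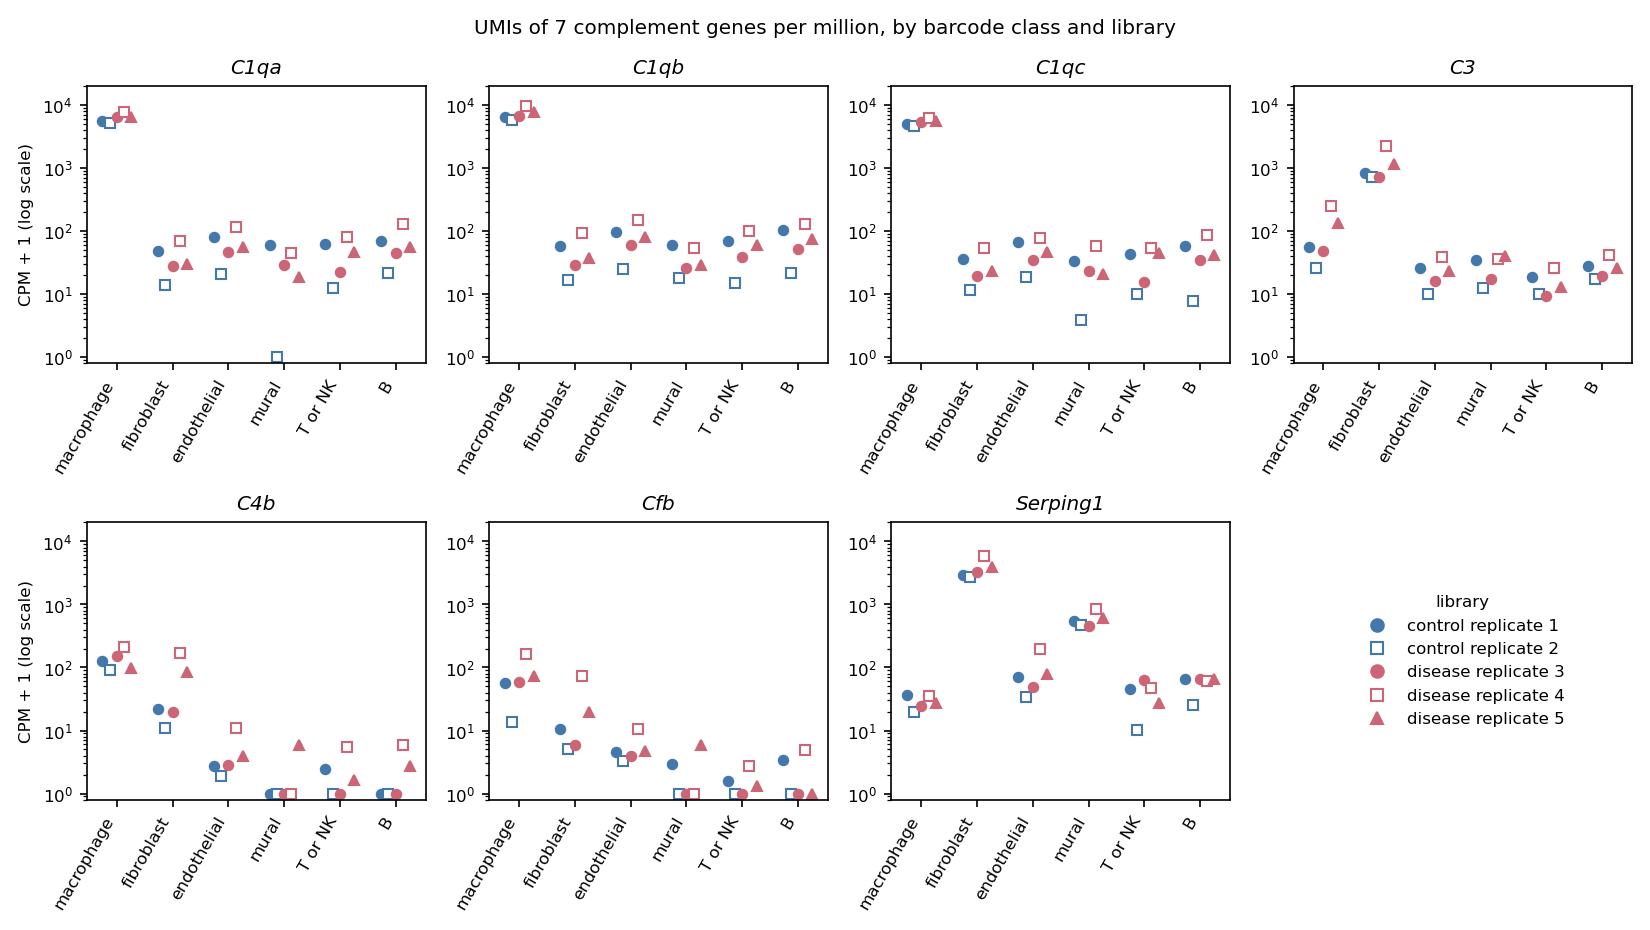
Level of each complement gene (CPM plus 1, log axis) in 6 barcode classes, 1 point per library, controls in blue and disease in red. C1q stands between 4586 and 9504 CPM in macrophage barcodes and under 200 CPM in the other classes, C3 and Serping1 are highest in fibroblast barcodes, and C4b and Cfb lie in macrophage and fibroblast barcodes.

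Over the 4 classes, 36 of 42 differences between pairs of classes were called by edgeR. All 7 genes were called for macrophage against each other class and for fibroblast against endothelial barcodes. The called differences included those of the C1q chains between endothelial barcodes and fibroblast or mural barcodes, classes at or near the lymphocyte level. Such differences can follow free RNA and are not read as differences of expression. Of all genes tested, 73.7% were called between macrophage and endothelial and 57.5% between macrophage and mural barcodes. The differences that were not called were those of the C1q chains between fibroblast and mural barcodes and of C3, C4b and Cfb between endothelial and mural barcodes.

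Macrophage barcodes were divided by their UMIs of 5 monocyte markers. These markers are not specific to monocytes: they summed to 140 to 456 CPM in macrophage barcodes, but also to 290 to 605 CPM in fibroblast barcodes (mostly Vcan, at 281 to 395 CPM), 181 to 803 CPM in T or NK and 340 to 710 CPM in B barcodes (mostly Plac8, at 329 to 675 CPM). Whether free RNA or mixed barcodes contribute to this division was not tested. Barcodes with at least 2 such UMIs made up 12.2 and 10.3% of macrophage barcodes in the controls and 10.4, 22.5 and 17.6% in disease. C1qa was lower in them in every library, at 4425, 3025, 3409, 6427 and 5421 CPM against 5836, 5444, 6934, 8155 and 6926 CPM in the remaining macrophage barcodes. C4b was lower too, at 46.2, 9.47, 19.7, 70.2 and 39.7 CPM against 141, 101, 174, 270 and 120 CPM. C3 went the other way in all 5 libraries, at 93.0, 101, 138, 323.6 and 171.5 CPM against 46.0, 13.7, 29.6, 222.5 and 122 CPM. Cfb was higher in the monocyte-marked barcodes of 4 libraries, but that of disease replicate 3 rests on the single barcode above. These are descriptions of barcodes within libraries, with no test.

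**Figure D2:**
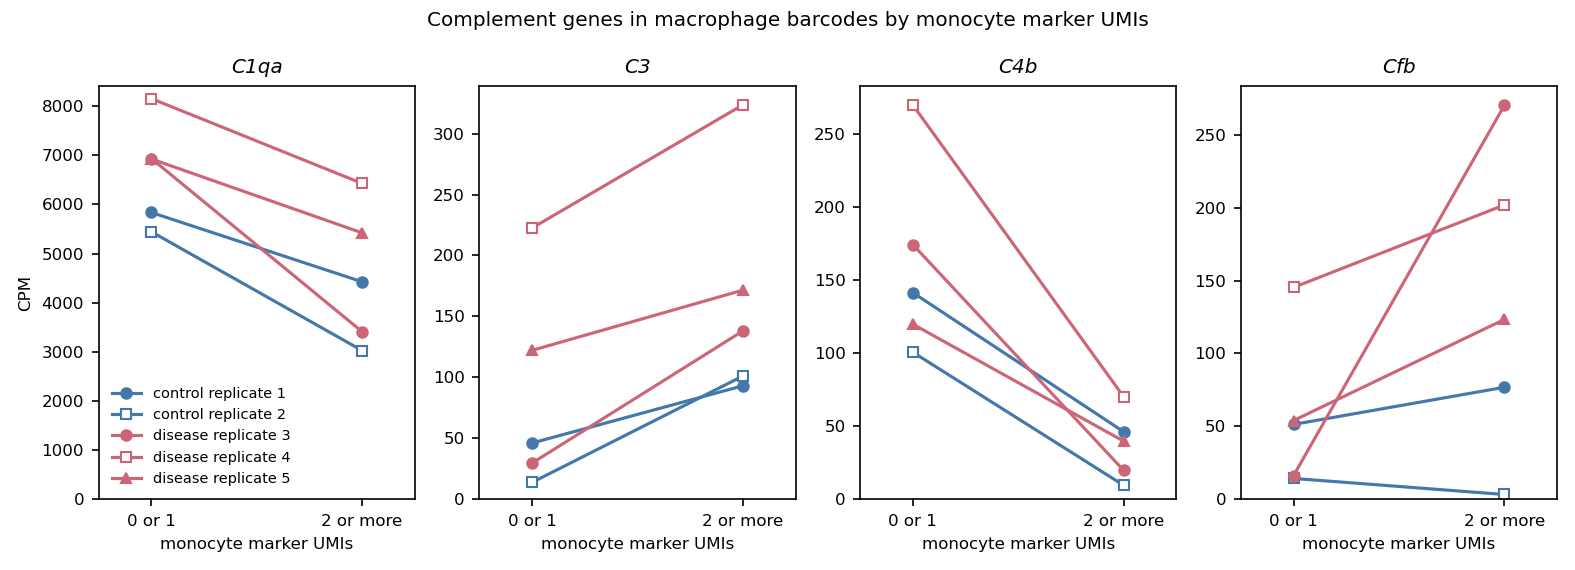
Level (CPM, linear axes from 0) of C1qa, C3, C4b and Cfb in macrophage barcodes with 0 or 1 and with 2 or more monocyte marker UMIs, 1 line per library. Lines for C1qa and C4b fall and those for C3 rise in all 5 libraries, and Cfb falls in control replicate 2 alone.

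Barcodes were also divided by a member's own UMIs after thinning to 1000. The 536 macrophage barcodes with a C4b UMI held more UMIs of all 4 resident macrophage genes listed (with Timd4 and Cd163) than the 3626 without: Lyve1, a hyaluronan receptor, at 692 against 336.5 CPM, and Folr2, a folate receptor, at 754 against 472 CPM, higher in 5 of 5 libraries. The monocyte genes Ly6c2 (3.73 against 45.8 CPM) and Ccr2 (24.2 against 118 CPM) were lower in 5 of 5, Plac8 and Chil3 had no UMI in C4b-positive barcodes, and Vcan, with 2 UMIs there and 23 in the rest, was higher in 1 of 5. The 306 macrophage barcodes with a C3 UMI showed no common direction over these lists when set against the 3856 without. Of the monocyte genes, Ly6c2 was higher in 5 of 5 libraries (107.8 against 35.0 CPM) and Ccr2 in 4, but Chil3 in 3, Plac8 in 2 and Vcan in 1. Of the resident genes, Cd163 was lower in 5 of 5 (205.9 against 406.6 CPM), Lyve1 and Timd4 were higher in 1, and Folr2 was higher in 3. Of 7 interferon-gamma response genes, Gbp2, an interferon-induced GTPase gene, was higher in 5 of 5 (653.6 against 185.7 CPM), Cxcl9 and B2m in 4, Irf1, Cxcl10 and Psmb9 in 3 and Ciita in 1. Cfb was higher in 4 of 5 (290.8 against 45.4 CPM pooled).

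In fibroblasts, C4b and Cfb UMIs lay mainly in barcodes that also held a C3 UMI. Thinned fibroblast barcodes with a C3 UMI numbered 1263, 481, 668, 1198 and 904 in libraries 1 to 5, and 1847, 845, 1159, 790 and 1184 had none. C4b was at 42.0, 18.7, 29.9, 209.5 and 139.4 CPM in the C3-positive and 14.1, 8.28, 10.3, 26.6 and 22.8 CPM in the C3-negative barcodes. The gap was thus present in both controls and widest in disease replicates 4 and 5. Cfb was at 14.3, 10.4, 8.98, 83.5 and 25.4 CPM against 4.33, 1.18, 0.863, 22.8 and 2.53 CPM, the latter from 1 to 18 UMIs. Serping1 was at 3107, 2894, 3531, 6030 and 4126 CPM against 2616, 2393, 3053, 3875 and 3234 CPM. Of the 4 adventitial fibroblast genes listed, Ly6a, the gene of the stem cell antigen SCA-1, was higher in C3-positive barcodes of 5 of 5 libraries (4366 against 2125 CPM in disease replicate 4), as were Dpp4 and Cd248, while Pi16 was higher in 2. Postn, which encodes the matrix protein periostin of activated fibroblasts, was lower in 5 of 5, as were Cilp and Thbs4, while Cthrc1, with 1 UMI against 5, was higher in 1 (Postn at 25.3, 24.9, 41.9, 93.5 and 283.2 CPM against 100.2, 63.9, 176.9, 227.8 and 296.5 CPM).

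**Figure D3:**
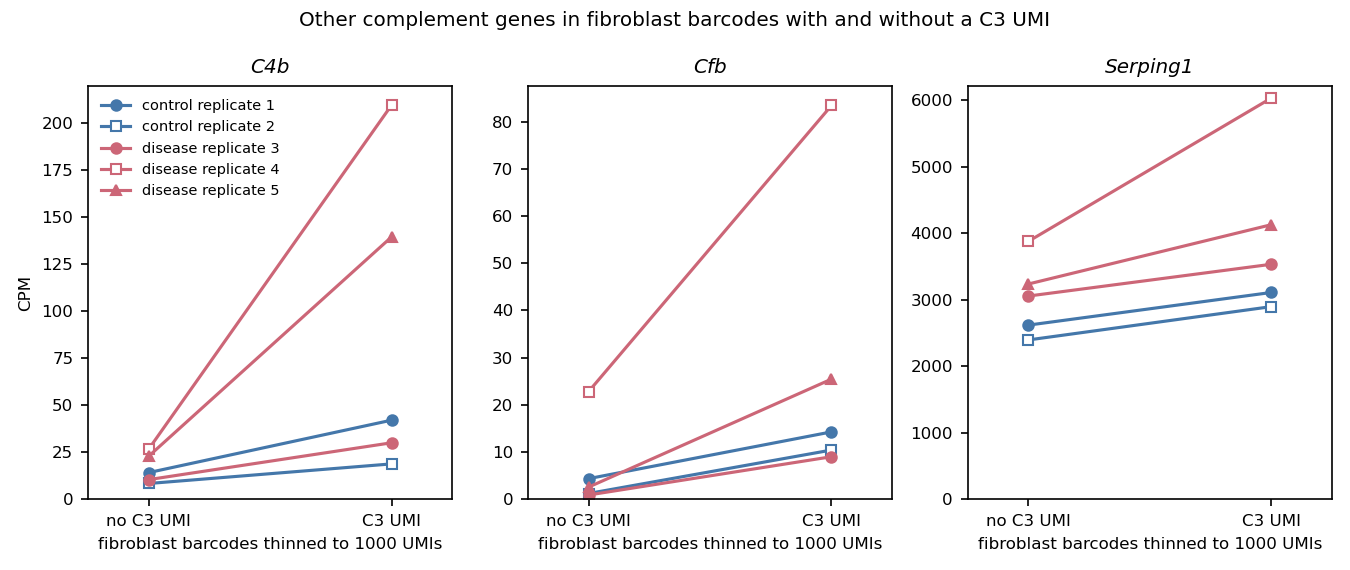
Level (CPM, linear axes from 0) of C4b, Cfb and Serping1 in fibroblast barcodes without and with a C3 UMI, each barcode thinned to 1000 UMIs, 1 line per library. All 15 lines rise, and the C4b lines of disease replicates 4 and 5 rise furthest, to 209.5 and 139.4 CPM.

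The libraries kept nearly 1 order for the inducible members. In fibroblasts, C3, C4b and Cfb each ranked the libraries in the order disease replicate 4, disease replicate 5, control replicate 1, disease replicate 3 and control replicate 2. That was also the order of the summed level of 8 interferon-gamma response genes, at 2335 and 1344 CPM in the control libraries and 1512, 7330 and 3082 CPM in disease. Serping1 differed from it in 1 of 10 library pairs, as did each C1q chain, which is read as background in fibroblasts. The order was thus not particular to the inducible members, and how many of all genes keep it was not determined. In macrophages the 8 genes summed to 4532 and 2496 CPM against 3661, 10002 and 5163 CPM. Macrophage C3 gave the same order, Cfb and each C1q chain differed in 1 of 10 pairs, and C4b differed in 3. Control replicate 1 thus lay above disease replicate 3 for the interferon list, as it did for fibroblast C3, C4b and Cfb. The 5 libraries also differed in T or NK barcodes, and the part of cell composition, of interferon exposure and of the genotype in these levels was not tested.

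**Figure D4:**
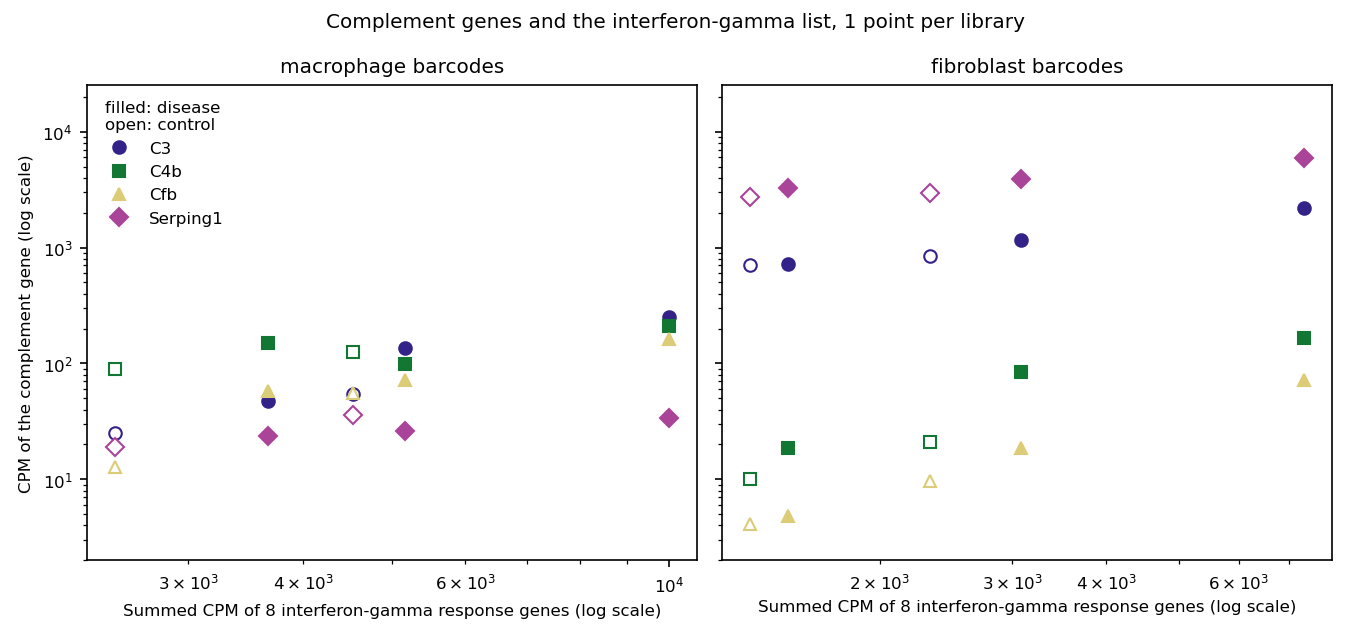
Level of the complement genes (CPM, log axis) against the summed level of 8 interferon-gamma response genes (CPM, log axis), 1 point per library, in macrophage and in fibroblast barcodes. C3, C4b and Cfb in fibroblasts keep the order of the interferon list in all 5 libraries, and disease replicate 4 lies at the right.

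Disease and control were then compared within each class, with the 3 disease libraries against the 2 controls in the same edgeR test, adjusted over all genes tested. None of the 7 members was called in any class at an adjusted p of 0.05, nor by DESeq2, and at an unadjusted p under 0.05 there was 1 member in macrophages (C3), 1 in fibroblasts (C4b) and 0 in endothelial and mural barcodes, where 18.1, 27.9, 24.8 and 19.1% of all genes had such a p in the 4 classes. After adjustment, 6.67% were called in macrophages, 12.9% in fibroblasts, 12% in endothelial and 7.87% in mural barcodes. Most of these were lower in disease, 97% of those in fibroblasts (86.9% with DESeq2) and 97.1% of those in endothelial barcodes (85.1% with a GC trend removed). Genes called higher were 0.0545, 0.387, 0.352 and 0.254% of those tested, and their number varied with the setting, from 6 in macrophages to 87 without disease replicate 3 and 249 with every gene tested, and from 52 in fibroblasts to 287 with DESeq2 and 3 without control replicate 2. The members' fold changes were positive in 7 of 7 in macrophages, fibroblasts and endothelial barcodes and in 3 of 5 tested in mural barcodes. Their median log2 fold changes were 0.51, 0.57, 0.61 and 0.26, against 0.01, -0.01, 0.01 and 0.02 over all genes. These counts and medians include members at or near the lymphocyte level in that class. They are the C1q chains in fibroblast, endothelial and mural barcodes, C3 in endothelial and mural barcodes, and Serping1 in macrophages. In endothelial barcodes, C4b and Serping1 were also near it in some libraries. Such values can follow free RNA, so nothing is read from these counts and medians. Every disease library lay above both controls for 4 of 7 in macrophages (the C1q chains, and Cfb only with the single barcode above), 1 of 7 in fibroblasts (Serping1), 1 of 7 in endothelial barcodes (C4b, where 1 barcode held 5 of 15 UMIs in disease replicate 3, which without it was at 1.22 CPM, between the controls) and 0 of 5 in mural barcodes. The same was true of 13.2, 25.5, 26.1 and 18% of all genes tested.

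C1qa had a log2 fold change of 0.47 in macrophages (SE 0.24, edgeR adjusted p = 0.358), C1qb of 0.51 (SE 0.28, adjusted p = 0.385) and C1qc of 0.38 (SE 0.23, adjusted p = 0.407). Without disease replicate 4 they were 0.28, 0.26 and 0.24. C3 gave 1.99 in macrophages (SE 0.76, adjusted p = 0.231) and 0.76 in fibroblasts (SE 0.46, adjusted p = 0.346). Without disease replicate 4 the fibroblast value was 0.22 and the macrophage value 1.18, and without control replicate 1 the macrophage value was 2.77. Without disease replicate 3 macrophage C3 was called, at 2.39 (adjusted p = 0.0299). C4b gave 2.44 in fibroblasts (SE 0.93, adjusted p = 0.163) and 0.64 in macrophages (SE 0.39, adjusted p = 0.418). Macrophage C4b was 0.21 without disease replicate 4, 0.36 without control replicate 2 and 0.99 without control replicate 1. Fibroblast C4b was 1.63 without disease replicate 4, 3.12 without control replicate 1, and was called without disease replicate 3, at 2.91 (adjusted p = 0.0277). Cfb gave 1.58 in macrophages (SE 0.73, adjusted p = 0.319), from 0.83 without disease replicate 4 to 3.16 without control replicate 1, and 2.09 in fibroblasts (SE 1.13, adjusted p = 0.288), or 0.67 without disease replicate 4 and 2.92 without control replicate 1. Serping1 gave 0.57 in fibroblasts (SE 0.26, adjusted p = 0.218), 0.99 in endothelial (SE 0.66, adjusted p = 0.399), 0.26 in mural (SE 0.24, adjusted p = 0.634) and 0.09 in macrophage barcodes (SE 0.36, adjusted p = 0.902). Without disease replicate 4 the endothelial value was 0.21, the fibroblast value 0.30 and the mural value 0.02, and without control replicate 1 the endothelial value was 1.64.

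**Figure D5:**
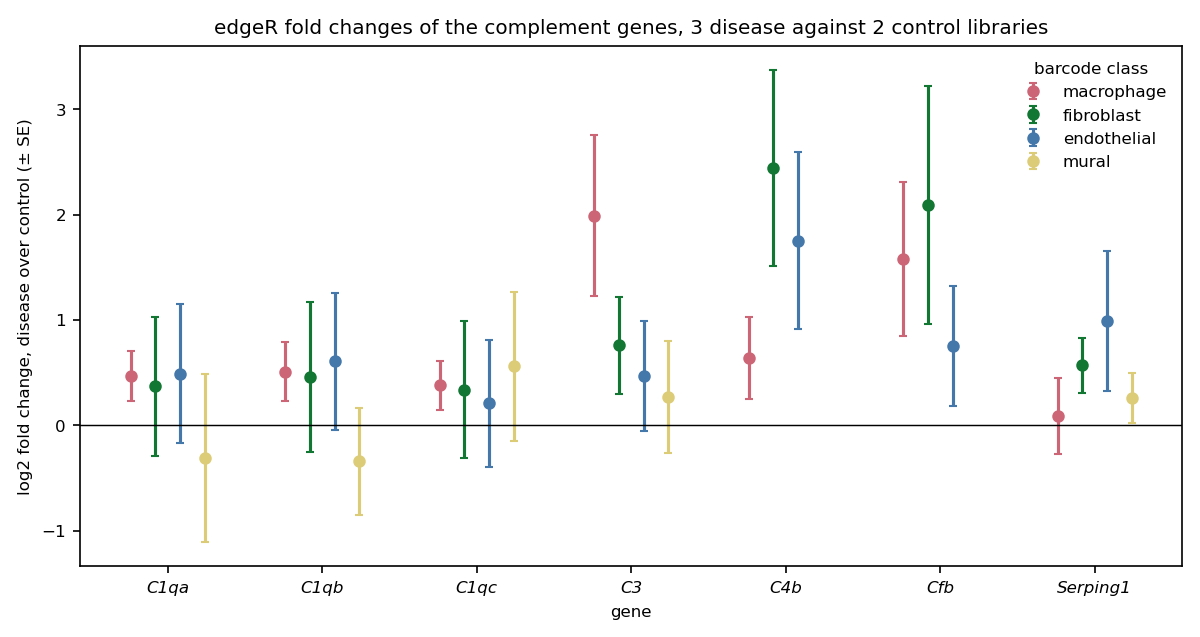
edgeR log2 fold change of disease over control for each complement gene and barcode class, with bars of 1 standard error (3 disease and 2 control libraries). C3 in macrophages (1.99) and C4b in fibroblasts (2.44) are the values at an unadjusted p under 0.05, and no value passed the adjusted threshold.

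Values of other cell markers stood beside these comparisons as follows. The 5 monocyte markers summed to 140 and 283 CPM in macrophage barcodes of the controls and 260, 456 and 270 CPM in disease. With monocyte-marked barcodes left out, the log2 fold change of C3 in macrophages was 2.14 (edgeR adjusted p = 0.295), against 1.99 with them. That of Cfb was 1.23 (adjusted p = 0.514) against 1.58, that of C4b 0.74 against 0.64 and that of C1qa 0.48 against 0.47. The part of these barcodes in the fold changes was not tested. The 4 epicardial markers summed to 1.69 and 3.41 against 3.17, 3.24 and 0.746 CPM in fibroblast barcodes, and the macrophage markers to 175 and 153 against 104, 101 and 91.7 CPM. Of the epicardial markers, Upk1b was at 0 in fibroblast barcodes of 4 libraries and Msln in 2, while none of the 5 monocyte and 8 macrophage markers was at 0 in those sums. Of the fibroblast state genes, Cd248 (log2 fold change -1.33, edgeR adjusted p = 0.00178) and Thbs4 (-1.94, adjusted p = 0.0102) were called lower in disease, while Postn (1.67, adjusted p = 0.0524) and Cilp (1.25, adjusted p = 0.069) were not called. The part of the macrophage markers and of these fibroblast state genes in the fibroblast results was not tested. Shares of barcodes with a UMI of each member were also compared between groups, over 28 pairs of member and class thinned to 1000 UMIs. The smallest 2-sided exact permutation p was 0.2, which is the smallest this test can give for 3 against 2 libraries. No share could therefore pass 0.05 by it. Groups did not overlap for 3 of the 28 pairs, against 34.6% of all genes tested in macrophage, 40.6% in fibroblast, 42.1% in endothelial and 27.6% in mural barcodes.

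Whether the disease effect of a member differed between classes was tested as an interaction of class and group. None of 42 such differences was called by edgeR or DESeq2, and 9 had an unadjusted edgeR p under 0.05. By pair of classes these were 2 members for macrophage and fibroblast (6.06% of all genes had such a p), 3 for macrophage and endothelial (5.65%) and 1 for macrophage and mural (4.61%). There were 1 for fibroblast and endothelial (16%), 0 for fibroblast and mural (5.37%) and 2 for endothelial and mural barcodes (5.16%). Several of them involve a class in which the member was at or near the lymphocyte level. Among these were C3 for macrophage with endothelial or with mural, C4b and Serping1 for macrophage and endothelial, and C1qb for endothelial and mural barcodes. Such values can follow free RNA, so nothing is read from these counts. After adjustment, 0.0496% of all genes were called for macrophage and fibroblast, 0.0147% for macrophage and endothelial, 0.0273% for macrophage and mural, 0.229% for fibroblast and endothelial, 0.236% for fibroblast and mural and 0.125% for endothelial and mural barcodes. The smallest adjusted p was that of Serping1, whose disease effect was larger in endothelial than in mural barcodes by 0.65 on the log2 scale (SE 0.17, adjusted p = 0.0964). That difference was 0.25 without disease replicate 4 and 0.15 without control replicate 2, and it was called without disease replicate 3 (0.95, adjusted p = 0.00125), control replicate 1 (1.14, adjusted p = 0.00492) or disease replicate 5 (0.86, adjusted p = 0.034). C3 had a larger effect in macrophages than in fibroblasts by 1.19 (SE 0.36, adjusted p = 0.625), and C4b a smaller one by a log2 difference of -1.50 (SE 0.59, adjusted p = 0.794). Both were called without disease replicate 3, at 1.49 (adjusted p = 0.0382) and -2.22 (adjusted p = 0.000483).

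The rest of the pathway was taken from a list of 53 complement genes, of which 52 were counted. Without the members, 18 were tested in macrophages, 23 in fibroblasts, 20 in endothelial and 9 in mural barcodes, and none was called in any class. Fold changes were positive for 14, 20, 14 and 7 of them, with medians of 0.38, 0.38, 0.17 and 0.19. At an unadjusted edgeR p under 0.05 there were 2 in macrophages (Cr1l and Itgax), 5 in fibroblasts (Cr1l, Cd59a, Cd59b, Colec11 and C7), 0 in endothelial barcodes and 1 in mural barcodes (Cd93), where 18.1, 27.9, 24.8 and 19.1% of all genes had such a p. Of these, Itgax was called without disease replicate 3 (1.97) and with every gene tested (adjusted p = 3.37e-05). Cd59a was called without disease replicate 4 (0.90, adjusted p = 0.0107) and with DESeq2 (0.78).

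Genes of the proteases that C1 inhibitor blocks, C1ra and C1s1, were counted in fibroblasts, as Serping1 was. Both also passed the filter in the other 3 classes, where their levels are not given here. C1ra in fibroblast barcodes was at 280 and 224 CPM in the control libraries and 259, 734 and 369 CPM in disease, and C1s1 at 245 and 195 CPM against 206, 816 and 408 CPM. Fibroblast C2, which encodes the partner of C4 in the classical C3 convertase, was at 9.73 and 4.59 CPM against 6.43, 65.4 and 20.1 CPM. In each, disease replicate 4 was highest and disease replicate 3 lay between the controls. The receptors of the C3 and C5 fragments, C3ar1 and C5ar1, were at 564 to 683 and 415 to 644 CPM in macrophages, and at most at 11.4 CPM in the other 3 classes. Cd93, a receptor-like gene of the list, was instead highest in endothelial barcodes, at 455 to 522 CPM. Cfp, which encodes the convertase-stabilising protein properdin, was at 361 and 259 CPM against 295, 267 and 249.5 CPM in macrophages.

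Other genes of the list were counted in mural barcodes. Vtn, which encodes vitronectin, an inhibitor of the terminal complex, was at 658 to 1170 CPM in mural barcodes, and Clu, the gene of clusterin, at 297 to 446 CPM there. Colec11, which encodes a lectin pathway collectin, was at 411 to 609 CPM in mural barcodes. Cfd, the gene of factor D, the protease that cleaves factor B, had 1 UMI in fibroblast barcodes and 0 in macrophage and endothelial barcodes. The terminal component C7 was at 38.9 and 50.1 CPM in fibroblasts of the controls and 73.2, 56.8 and 58.2 CPM in disease, an edgeR log2 fold change of 0.46 that was not called after adjustment.

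Likeness of pattern was described by the correlation of log2 CPM over 20 sums (4 classes in 5 libraries) among 4651 genes, with no test, since sums of 1 class share its cells and those of 1 library its depth. Among genes that are not members, C1qa was most like Wfdc17 (0.995), Laptm5 (0.984) and Lyz2 (0.978), and C1qb most like Lyz2 (0.995). C3 was most like Ifi205 (0.982), Olfml3 (0.958) and Dbi (0.951), and Serping1 like the collagen gene Col1a2 (0.987), which is itself a gate gene. C4b was most like Capg (0.955) and Cfb like Fam26f (0.949). Among the members, C1qa and C1qc correlated at 0.989, C4b and Cfb at 0.944 and C3 and Serping1 at 0.652.

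The rarer classes were summed over all libraries and are given as levels only. The 24 epicardial barcodes held 2004 C3 UMIs (9885 CPM), 99 C4b UMIs (488 CPM) and Serping1 at 4360 CPM. The 79 Schwann barcodes held 84 C4b UMIs (381 CPM) and Serping1 at 163 CPM. The 168 neutrophil barcodes held 47 C3 UMIs (132 CPM) and C1qa, C1qb and C1qc at 261.8, 360.4 and 199.9 CPM, above the levels in lymphocyte barcodes. Epicardial C3 thus exceeded the fibroblast level of any library, from few cells.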

How the data were processed

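Transcript levels were measured by 10x Genomics 5′ single-cell sequencing (v1.1 chemistry, per the labels' protocols) of sorted heart cells in 2 control and 3 disease libraries. The deposited values are raw UMI counts per gene and barcode, and per the file headers Cell Ranger 3.1.0 wrote them; Cell Ranger 3 and Seurat 3 are named in the submitters' processing notes. A barcode was kept if it had 500 UMIs or more from 200 genes or more, no more than 10% of them mitochondrial. A class needed at least 3 UMIs from at least 2 of its markers and at least 80% of all gating UMIs; mixed-marker barcodes (9.11 to 13.8% of retained barcodes per library) were left out, and no doublet caller was run. UMIs were summed per class and library, and a level (CPM) is UMIs per 1000000. Sums were tested with edgeR 4.0.16 (TMM, filterByExpr, quasi-likelihood; R 4.3.3), with DESeq2 1.42.0 as an alternative, and Benjamini-Hochberg adjustment at 0.05 over all genes. The script was tested on simulated data. Shares were compared after thinning each barcode to 1000 UMIs, which left out 36 control and 58 disease macrophage barcodes, 13 and 35 fibroblast, 258 and 477 endothelial, 7 and 11 mural, and 3 and 66 T or NK barcodes. Intervals cover counting error only. With libraries of pooled mice, p-values measure the spread between libraries. Named genes were the 7 members, genes of a complement list and of context lists (interferon response, fibroblast and macrophage states, other cell markers), and the 3 genes most like each member. Members, lists and tests were chosen with earlier results of these data known. Gene coordinates are those of GENCODE M21 on GRCm38. Alternatives covered normalization, filters, gate purity, depth, monocyte-marked barcodes, a GC trend (chosen after seeing the data) and each library left out. Some listed genes are not reported here.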

Additional observations from a re-analysis of the deposited data

How the results depend on the processing

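Over the tests of disease against control, 13 results of the members were recomputed under 175 alternatives, and 171 kept their direction and side of the threshold while 4 became called. With every gene of at least 1 UMI tested, 2 members were called in macrophages, C3 (adjusted p = 5.04e-06) and Cfb (adjusted p = 0.000232). Leaving out 1 library at a time gave 0 to 1 called members in macrophages and in fibroblasts and 0 to 0 in endothelial and mural barcodes. For differences of effect between classes the range was 0 to 2 (macrophage and fibroblast), 0 to 1 (macrophage and endothelial, fibroblast and endothelial, endothelial and mural) and 0 to 0 for the other pairs with mural barcodes. Between fibroblast and mural barcodes, C1qa was called without control replicate 1 (0.89, adjusted p = 0.00589), and C1qb without control replicate 1 (0.67, adjusted p = 0.0187) or control replicate 2 (0.50). At a gate purity of 90%, the uncalled differences of fibroblast over mural barcodes changed sign: C1qa to -0.20, C1qb to -0.06 and C1qc to -0.49, and C1qc of endothelial over mural barcodes, at 0.49, was no longer called. Of the 28 shares, 3 did not overlap between groups (C1qb and C3 in macrophages, Serping1 in fibroblasts), where 27.6 to 42.1% of all genes tested did not, against 2 after thinning to 2000 UMIs, 0 of them shared, and 0 without thinning. Over all genes, 734 were called in macrophages, 203 to 1086 with 1 library left out, 1522 with every gene tested and 519 with the GC trend removed. In fibroblasts 1734 were called (794 to 1839 with 1 library left out), in endothelial barcodes 1506 (769 to 1531) and in mural barcodes 434 (156 to 490), the last with 221 at a purity of 90%, 247 with DESeq2 and 669 with every gene tested. No paired analysis was possible because control replicates are numbered 1 and 2 and disease replicates 3, 4 and 5, so the groups share no number. The 2 control libraries, and the 50 to 104 mural barcodes per library, limit the precision.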
